A study of Homo sapiens with 12 samples.

Results

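The 9 genes described here are targets of the transcription factor NRF2, 4 of them aldo-keto reductases. They were picked by symbol for what is known of them, with earlier results of these data known. They are AKR1B10 (ENSG00000198074), AKR1C1 (ENSG00000187134), AKR1C2 (ENSG00000151632), AKR1C3 (ENSG00000196139), NQO1 (ENSG00000181019), GCLM (ENSG00000023909), TXNRD1 (ENSG00000198431), HMOX1 (ENSG00000100292) and SRXN1 (ENSG00000271303). All 9 were found among the 60664 gene identifiers of the expression table, and all 9 were among the 11088 genes tested, those whose TPM averaged 1 or more across the 12 libraries. TPM is transcript abundance scaled to a fixed total in each library. AKR1B10, AKR1C1, AKR1C2 and AKR1C3 passed that filter through 1 of the 2 cell lines, being low or near 0 in the other, so a difference between the lines for these 4 follows in part from the filter.

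NRF2, the protein of NFE2L2, is a transcription factor that switches on genes against oxidants and reactive chemicals. Its partner KEAP1 brings it to a CUL3 and RBX1 ubiquitin ligase for destruction, and oxidants or electrophiles interrupt that step. NRF2 then binds antioxidant response elements together with a small MAF protein, in competition with the repressor BACH1. In liver its targets make glutathione, reduce thioredoxin and quinones, break down heme and clear reactive carbonyls. The aldo-keto reductases among them use NADPH to reduce aldehydes, ketones and steroids, and AKR1B10 is known for its high expression in many hepatocellular carcinomas.

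RNA was sequenced from 12 libraries of 2 human hepatoma lines, called Huh-7 and MHCC-97H, of wild-type genotype per the labels and grown in DMEM with fetal bovine serum. In each line, 3 libraries came from cells transfected with si-NC, the control small interfering RNA, and 3 from cells transfected with si-CENPU, which targets the kinetochore gene CENPU. Every group is thus a transfected group, and no untransfected group was analysed here. The sources used here give no time after transfection, and the labels do not say whether the replicates were separate cultures, so p-values measure the spread between these libraries, which may be technical. Each line is a single model, so a difference between the lines cannot be told apart from any difference in how they were grown or sequenced.

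CENPU itself was low. The 3 control libraries of Huh-7 had 0.56, 0.84 and 0.53 TPM and the 3 knockdown libraries 0.17, 0.11 and 0.45 TPM, a difference of means of -62.2%. Those of MHCC-97H had 1.17, 0.83 and 0.89 TPM against 0.22, 0.45 and 0.24 TPM, a difference of -68.5%. The groups did not overlap in either line, and the gene lay below the filter of the gene-wide test. Although the source label of the samples names carcinoma tissue, the cell line labels name the lines. Hepatocyte genes (9 in the list, among them ALB, APOA1, TTR and AFP) summed to between 6570 and 7500 TPM in Huh-7 and to between 0.66 and 2.56 TPM in MHCC-97H. ALB and FGB were listed at 0 in all 3 si-NC libraries of MHCC-97H, so the defining hepatocyte markers were at or near 0 there. Of the biliary keratins, Huh-7 had KRT19 (191.8 ± 17.9 TPM in si-NC; SD, n = 3) and MHCC-97H had KRT7 (580.3 ± 20.3 TPM). Among the 4 biliary markers listed, only KRT7 passed the gene-wide test as higher in MHCC-97H in si-NC, as did 50.1% of all genes. KRT19, SOX9 and EPCAM passed as lower there, as did 22.9% of all genes. Endothelial markers summed to at most 0.68 TPM, stromal markers to at most 7.12 TPM, and 4 of 5 leukocyte markers found to at most 29.2 TPM, mostly LYZ in Huh-7. One library stood apart: Huh-7 si-NC replicate 1 had a mean correlation of 0.965 with the others of its line, against 0.975 to 0.978 for the rest of that line. It was the lowest library of its line for 5 of the 8 members above 1 TPM there, and its values are followed through the results.

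Each aldo-keto reductase among the members was below 1 TPM in every library of 1 line. AKR1C1, AKR1C2 and AKR1C3 lie next to each other on chromosome 10 (GRCh38, 4963253 to 4983283, 4987400 to 5018031 and 5035354 to 5107686). They reduce steroids and carbonyls with different preferences, AKR1C1 being best known for progesterone, AKR1C2 for dihydrotestosterone and AKR1C3 for androstenedione and prostaglandin D2. AKR1C1 read 3.85, 16.63 and 17.05 TPM in the si-NC libraries of Huh-7 and 11.52, 6.85 and 13.68 TPM in its si-CENPU libraries. AKR1C2 read 3.41, 15.24 and 12.79 TPM there under si-NC and 10.24, 10.28 and 14.25 TPM under si-CENPU. Replicate 1 of si-NC was the lowest Huh-7 library for both genes.

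In MHCC-97H these genes were at or near 0. AKR1C1 was listed at 0, 0.01 and 0.06 TPM under si-NC and at 0.03, 0 and 0.02 TPM under si-CENPU, and AKR1C2 was listed at 0 in all 6 libraries. An exact 0 in a TPM table can be a failed estimate, so no fold is given for either gene. AKR1C3 had the opposite pattern. MHCC-97H gave 7.33, 6.92 and 5.7 TPM under si-NC and 7.59, 7.33 and 4.44 TPM under si-CENPU. Huh-7 gave 0.12, 0.31 and 0.14 TPM under si-NC and 0.16, 0.09 and 0.29 TPM under si-CENPU. No library of one line reached the other line's range for any of the 3 genes.

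Between the lines the cluster thus differed in which gene was expressed. The 3 genes summed to between 7.38 and 32.18 TPM in Huh-7, of which AKR1C3 made up 0.467% to 1.63%, and to between 4.46 and 7.62 TPM in MHCC-97H, of which AKR1C3 made up 99.0% to 100%. TPM is scaled by transcript length, so these shares compare levels between genes. In Huh-7 the ratio of AKR1C1 to AKR1C2 lay between 0.666 and 1.33, so neither was always the higher.

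**Figure D1:**
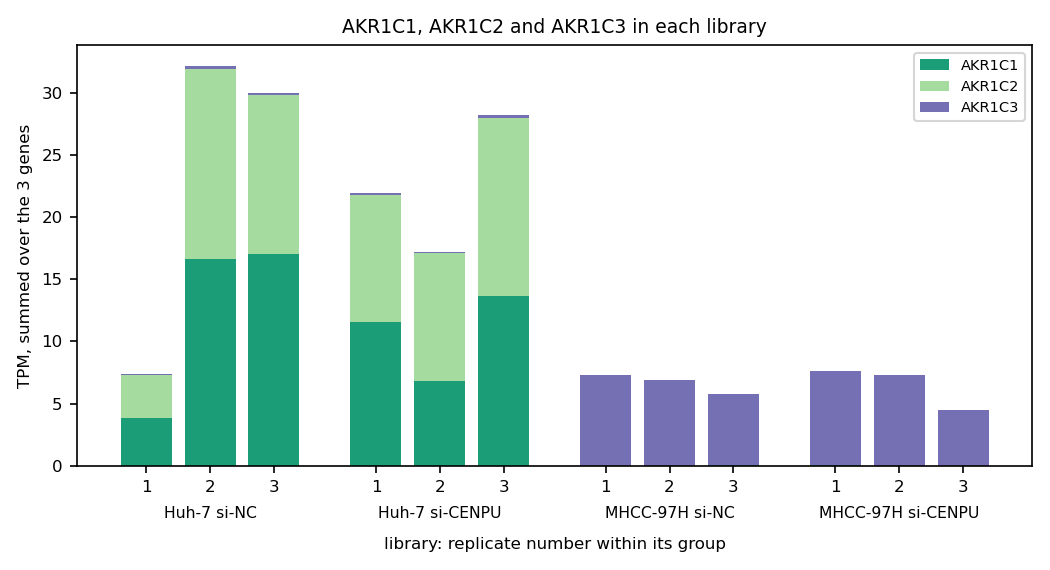
Stacked bars give the TPM of AKR1C1, AKR1C2 and AKR1C3 in each of the 12 libraries, with the replicate number of each group on the horizontal axis. Huh-7 bars are made almost wholly of AKR1C1 and AKR1C2 and sum to between 7.38 and 32.18 TPM, while MHCC-97H bars are almost wholly AKR1C3 and sum to between 4.46 and 7.62 TPM.

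Near-identical sequence limits how reads can be shared out between AKR1C1 and AKR1C2. Their coding sequences (972 bases each, GENCODE 29) differ at 19 bases and are 98.0% identical, and 51.8% of all 50-base windows of AKR1C1 occur unchanged in AKR1C2. AKR1C3 is more distinct, with 83 differing bases and 91.5% identity to AKR1C1. The sources used here do not give the read length. The split between AKR1C1 and AKR1C2 is uncertain while that between this pair and AKR1C3 rests on more bases. Summed with AKR1C4 into 1 value, the group was still lower in MHCC-97H than in Huh-7, by a log2 difference of -1.42 in si-NC (95% interval -2.39 to -0.46; limma adjusted p = 0.0121) and -1.65 in si-CENPU (-2.62 to -0.69; adjusted p = 0.00558).

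The promoters of the cluster show the same close relation, and are printed because AKR1C1 and AKR1C2 shared a pattern between the lines that AKR1C3 did not. Each line gives the 150 bases before a RefSeq start (GRCh38.p14), 5′ to 3′ on the gene's strand, and capitals mark bases that differ from the AKR1C1 window in an alignment, bases with no AKR1C1 partner included. The positions are chr10:4963265-4963414 (plus) for AKR1C1, chr10:5003858-5004007 (minus) for AKR1C2, and chr10:5048631-5048780 and chr10:5094264-5094413 (both plus) for the 2 starts of AKR1C3.
AKR1C1: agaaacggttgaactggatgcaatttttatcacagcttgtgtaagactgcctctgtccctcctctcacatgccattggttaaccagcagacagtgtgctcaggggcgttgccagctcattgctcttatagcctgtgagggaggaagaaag
AKR1C2: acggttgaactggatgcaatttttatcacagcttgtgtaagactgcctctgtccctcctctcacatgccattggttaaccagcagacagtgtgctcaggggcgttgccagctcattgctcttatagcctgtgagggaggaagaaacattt
AKR1C3, first start: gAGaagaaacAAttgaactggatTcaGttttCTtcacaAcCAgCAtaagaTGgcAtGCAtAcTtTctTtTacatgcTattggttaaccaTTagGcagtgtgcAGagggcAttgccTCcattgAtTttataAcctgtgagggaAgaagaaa
AKR1C3, second start: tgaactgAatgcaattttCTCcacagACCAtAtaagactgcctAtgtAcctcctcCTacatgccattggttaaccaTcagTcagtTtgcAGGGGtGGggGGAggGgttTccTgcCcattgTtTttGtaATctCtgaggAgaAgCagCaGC
The AKR1C2 window holds 0 capitals and shares an unbroken run of 252 bases with AKR1C1 in the 300-base windows of the table, whose aligned bases are 98.6% identical. The AKR1C3 windows hold 37 and 42 capitals, with 78.0% and 79.9% identity over the aligned 300-base windows. No value here bears on why the levels differ.

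AKR1B10, which reduces retinal and lipid aldehydes, lies on chromosome 7 (134527592 to 134541408). Huh-7 gave 1.43, 3.81 and 2.58 TPM under si-NC and 1.91, 1.21 and 2.07 TPM under si-CENPU. MHCC-97H gave 0.16, 0.23 and 0.07 TPM under the control and 0.39, 0.14 and 0.25 TPM under si-CENPU. Every Huh-7 library lay above every MHCC-97H library, and the siRNA groups overlapped within each line. Its coding sequence is 93.8% identical to that of its neighbour AKR1B15, so reads of the 2 genes can be confused as well.

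The other 5 members were expressed in both lines. NQO1, the quinone reductase that uses NADH or NADPH, lies on chromosome 16 (69706996 to 69726951). Huh-7 had 18.99, 25.97 and 20.74 TPM of it under si-NC and 24.09, 32.91 and 28.89 TPM under si-CENPU. The MHCC-97H libraries had 122.74, 126.32 and 113.01 TPM under si-NC and 110.8, 117.72 and 112.99 TPM under si-CENPU. All 6 MHCC-97H libraries lay far above all 6 Huh-7 libraries, while the siRNA groups overlapped in both lines.

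HMOX1 encodes heme oxygenase 1, which opens the heme ring to biliverdin, carbon monoxide and iron, and lies on chromosome 22 (35380361 to 35394214). It was the most abundant member in Huh-7, with 143.8, 164.47 and 180.51 TPM under si-NC and 142.28, 155.98 and 164.57 TPM under si-CENPU. MHCC-97H had 20.21, 19.99 and 26.35 TPM under si-NC and 20.87, 19.71 and 18.67 TPM under si-CENPU. HMOX1 and NQO1 therefore stood in opposite order in the lines, without overlap in either direction.

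TXNRD1, the cytosolic thioredoxin reductase (chromosome 12, 104215779 to 104350305), read 7.02, 14.26 and 11.21 TPM in control Huh-7 and 10.74, 6.35 and 12.26 TPM after si-CENPU. Its MHCC-97H values were 48.48, 38.65 and 28.24 TPM under si-NC and 29.74, 34.93 and 23.98 TPM under si-CENPU. The lines did not overlap. A processed pseudogene annotated inside TXNRD1, RPL18AP3, stood at 11.8 to 39.9 TPM, and reads of overlapping genes cannot be told apart without knowing the strand setting.

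SRXN1, sulfiredoxin, repairs over-oxidised peroxiredoxins and lies on chromosome 20 (646615 to 653370). Its values were 9.02, 13.37 and 14.99 TPM in control Huh-7 and 11.71, 10.71 and 15.46 TPM after si-CENPU. They were 17.86, 14.31 and 9.93 TPM in control MHCC-97H and 12.3, 13.01 and 9.22 TPM after si-CENPU. All 4 groups overlapped.

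GCLM, the modifier subunit of the glutamate-cysteine ligase that starts glutathione synthesis (chromosome 1, 93885205 to 93909456), was low throughout. Control Huh-7 had 0.58, 1.74 and 1.73 TPM, and 1.46, 0.85 and 1.54 TPM after si-CENPU. Control MHCC-97H had 2.73, 1.95 and 1.57 TPM, and 1.64, 1.92 and 1.39 TPM after si-CENPU. The lines overlapped under each siRNA, and the siRNA groups within each line.

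**Figure D2:**
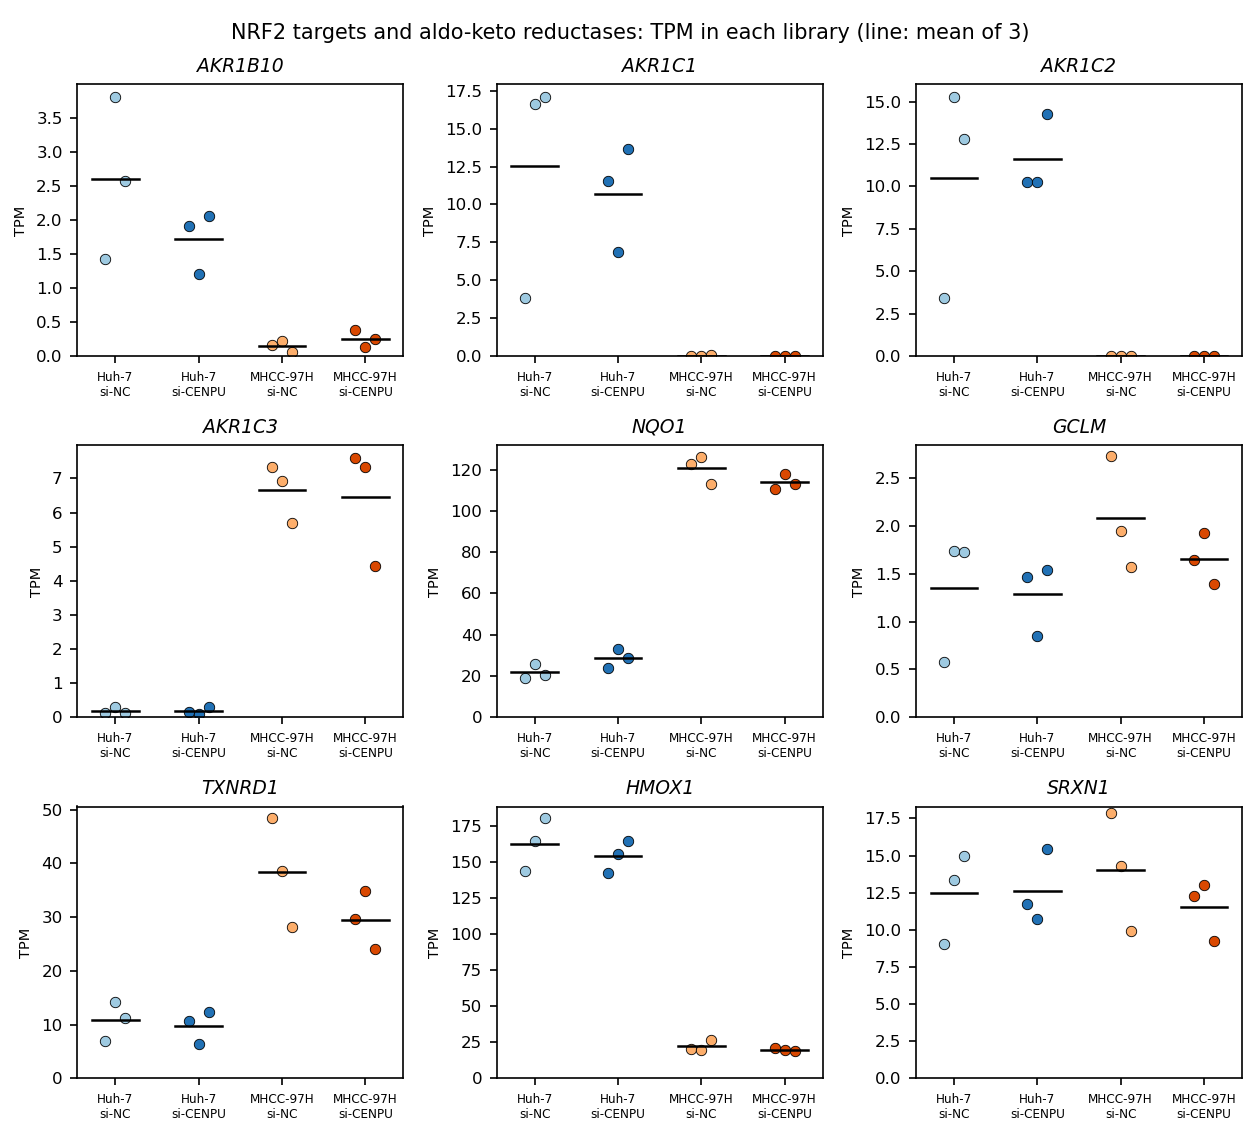
Each panel gives 1 gene's TPM (vertical axis, linear from 0) in the 3 libraries of each of the 4 groups, with points for libraries and a line for the mean. NQO1, TXNRD1 and AKR1C3 are high in MHCC-97H, HMOX1, AKR1B10, AKR1C1 and AKR1C2 are high in Huh-7, and GCLM and SRXN1 overlap between the lines.

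Ordered by median TPM over both siRNA groups, Huh-7 had HMOX1 first (142.28 to 180.51 TPM) and NQO1 second (18.99 to 32.91 TPM), with no overlap between them. AKR1C1, SRXN1, AKR1C2 and TXNRD1 followed with medians between 10.975 and 12.6 TPM and overlapping ranges, so their order is not resolved. AKR1B10 and GCLM also overlapped each other, and AKR1C3 was last. In MHCC-97H NQO1 came first (110.8 to 126.32 TPM), and TXNRD1 and HMOX1 overlapped in the next places. SRXN1, AKR1C3, GCLM, AKR1B10 and AKR1C1 followed, each below the one before without overlap, and AKR1C2 was listed at 0.

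The first comparison asked whether si-CENPU changed these genes. None of the 9 members passed the test in Huh-7 or in MHCC-97H (limma on log2(TPM + 1), Benjamini-Hochberg adjusted p below 0.05 over all genes tested), where 0.00902% of all genes were called in each line. At an unadjusted p below 0.05 there was 1 of 9 in Huh-7, NQO1, and 0 of 9 in MHCC-97H, against 4.57% and 3.42% of all genes. For 0 of 9 members did the si-CENPU and si-NC libraries fail to overlap, against 7.65% of all genes in Huh-7 and 6.95% in MHCC-97H. The members' median log2 difference was -0.01 for Huh-7, beside 0.01 over all tested genes, and -0.08 for MHCC-97H, beside -0.05.

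NQO1 in Huh-7 had the smallest p of these. Its mean was 21.9 ± 3.63 TPM under si-NC and 28.6 ± 4.42 TPM under si-CENPU (SD, n = 3). The log2 difference was 0.37 (SE 0.129, 95% interval 0.09 to 0.66), with a limma p of 0.0150 before and 0.963 after adjustment over all genes. Leaving out replicate 1 of si-NC, the outlying library, the difference was 0.28 (interval -0.02 to 0.58; limma adjusted p = 0.904). In MHCC-97H the NQO1 difference was -0.08 (-0.37 to 0.20). The difference between the lines' responses was -0.46 (-0.86 to -0.05; limma adjusted p = 0.999), which does not pass.

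In Huh-7 the values of AKR1C1, AKR1C2 and AKR1B10 depended on that same library. With all libraries, AKR1C1 differed by -0.03 (95% interval -0.97 to 0.90), AKR1C2 by 0.32 (-0.52 to 1.16) and AKR1B10 by -0.36 (-0.87 to 0.14) on the log2(TPM + 1) scale, each with a limma adjusted p of 1. Without si-NC replicate 1 the values were -0.66 (-1.15 to -0.17), -0.26 (-0.61 to 0.08) and -0.62 (-1.05 to -0.19), each with a limma adjusted p of 0.904. AKR1C1 turned its sign without si-NC replicate 3 (0.2892), without si-NC replicate 2 or without si-CENPU replicate 2, so no direction is given for it. AKR1C2 turned its sign without si-NC replicate 1, and for AKR1C1 both si-NC libraries other than replicate 1 lay above all 3 si-CENPU libraries. Libraries of this line deviated from it with transcript GC content, replicate 1 of si-NC by a Spearman rho of 0.335 over genes and replicate 2 of si-NC by -0.329. After a GC correction, chosen after the data were seen, AKR1C1 differed by -0.05, AKR1C2 by 0.31 and AKR1B10 by -0.38, close to the uncorrected values.

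For the other members of Huh-7 the log2 differences were -0.01 for AKR1C3 (95% interval -0.41 to 0.39), -0.01 for GCLM (-0.53 to 0.51), -0.13 for TXNRD1 (-0.76 to 0.51), -0.07 for HMOX1 (-0.34 to 0.19) and 0.03 for SRXN1 (-0.49 to 0.55). The interval of HMOX1 is the narrowest of these, and those of TXNRD1, GCLM and SRXN1 each hold a difference of 0.5. AKR1C3 was near 0 in this line (0.09 to 0.31 TPM) and shares its fitted spread with MHCC-97H, so its interval here says little. Without si-NC replicate 1, SRXN1 turned its sign (-0.17), TXNRD1 was -0.38, GCLM -0.27 and HMOX1 -0.16, all with limma adjusted p of 0.904 or more.

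In MHCC-97H the differences of the expressed members were -0.35 for TXNRD1 (95% interval -0.99 to 0.28), -0.24 for SRXN1 (-0.76 to 0.28), -0.21 for GCLM (-0.72 to 0.31), -0.15 for HMOX1 (-0.42 to 0.12) and -0.06 for AKR1C3 (-0.46 to 0.34), all with a limma adjusted p of 1. Near 0 TPM, AKR1B10 differed by 0.13, AKR1C1 by -0.01 and AKR1C2 by 0. For AKR1C1 and AKR1C2 the fitted spread comes from Huh-7, so their intervals in this line say little. TXNRD1, SRXN1 and GCLM had the same order of si-NC libraries, with replicate 1 highest and replicate 3 lowest. Those libraries lay at opposite ends of the GC trend (Spearman rho -0.529 and 0.476), and after the GC correction the 3 differences were -0.25, -0.18 and -0.09. Replicate 3 of si-CENPU (rho 0.303) was the lowest of the line for 5 of the 6 members above 1 TPM. The part of library GC content in these orders was not tested further.

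**Figure D3:**
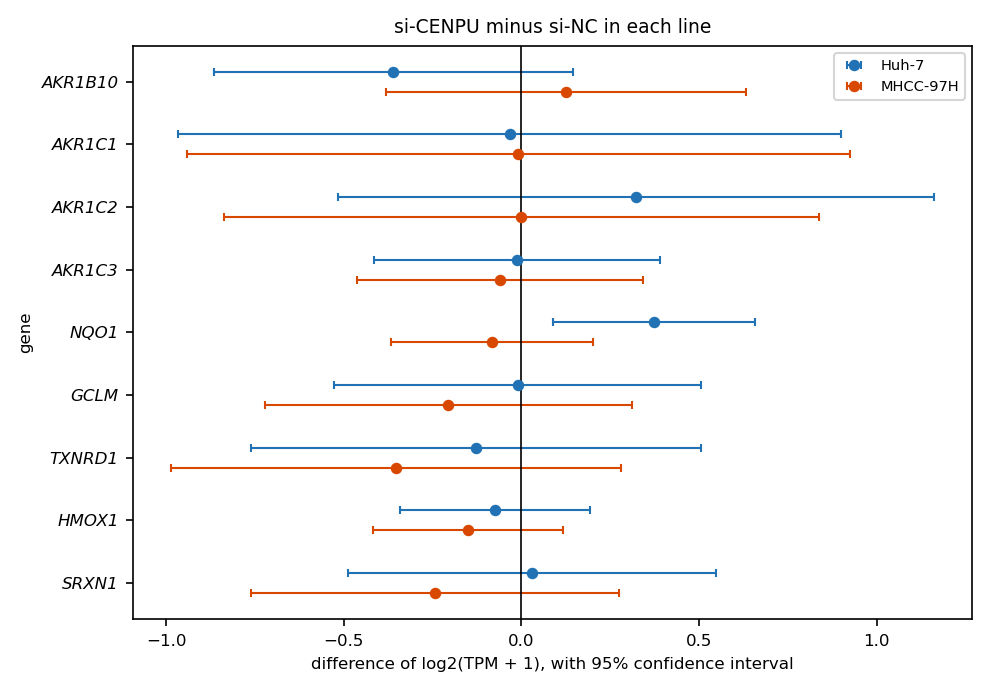
Points give the si-CENPU minus si-NC difference of log2(TPM + 1) for each gene in Huh-7 (blue) and MHCC-97H (orange), and bars its 95% confidence interval from limma. Every interval crosses 0 but that of NQO1 in Huh-7 (0.09 to 0.66), which is not adjusted for the number of genes.

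Averaged over the lines, 0 of 9 members passed (0.00902% of all genes called, 0 members at an unadjusted p below 0.05 beside 4.06% of all genes). For the difference between the lines' responses 0 of 9 passed (0.00902% called), with NQO1 the 1 member below 0.05 unadjusted, beside 3.45% of all genes. AKR1B10, AKR1C1, AKR1C2 and AKR1C3 were low or near 0 in 1 line, so these 2 contrasts add little to the other line's value. AKR1C2, listed at 0 in MHCC-97H, had 0.16 and -0.32 here, both set by its Huh-7 value of 0.32.

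The second comparison set the 2 lines against each other. In si-NC, 7 of the 9 members differed (limma adjusted p below 0.05), where 73% of all tested genes did, so their number is near the background, and 4 of the 7 are the aldo-keto reductases that passed the filter through 1 line. AKR1C3, NQO1 and TXNRD1 were higher in MHCC-97H (50.1% of all genes), and AKR1B10, AKR1C1, AKR1C2 and HMOX1 were lower (22.9% of all genes). In si-CENPU the same 7 were called in the same directions, where 70.1% of all genes were called, 46.2% higher and 23.9% lower. The libraries of the lines did not overlap for these 7 genes in either siRNA group, beside 73% of all genes in si-NC and 74.7% in si-CENPU. The comparisons in si-NC and in si-CENPU use different libraries of the same lines.

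NQO1 was 5.51-fold higher in MHCC-97H in si-NC (log2 difference 2.42, SE 0.129, 95% interval 2.14 to 2.70; limma adjusted p = 1.4e-08) and 3.98-fold higher in si-CENPU (log2 1.96). TXNRD1 was 3.55-fold higher in si-NC (log2 1.75, SE 0.288, interval 1.12 to 2.39; limma adjusted p = 0.000205) and 3.02-fold higher in si-CENPU. HMOX1 was 7.34-fold higher in Huh-7 in si-NC (log2 -2.83, SE 0.121, interval -3.09 to -2.56; limma adjusted p = 1.9e-09) and 7.81-fold higher in si-CENPU.

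AKR1C3 had means of 6.65 ± 0.848 TPM in MHCC-97H and 0.19 ± 0.104 TPM in Huh-7 in si-NC (SD, n = 3; log2(TPM + 1) difference 2.68, limma adjusted p = 1.2e-07) and differed by 2.63 in si-CENPU. AKR1B10 had means of 0.153 ± 0.0802 TPM in MHCC-97H and 2.61 ± 1.19 TPM in Huh-7 (difference -1.59, adjusted p = 7.6e-05) and differed by -1.11 in si-CENPU. AKR1C1 differed by -3.50 and -3.47, and AKR1C2 by -3.32 and -3.64, in si-NC and si-CENPU. Without Huh-7 si-NC replicate 1 the si-NC values were -4.12 and -3.90. For these genes the size depends on the pseudocount of 1, since 1 line is at or near 0.

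GCLM and SRXN1 did not pass. GCLM differed by 0.42 in si-NC (95% interval -0.10 to 0.94; limma adjusted p = 0.127) and by 0.22 in si-CENPU (-0.29 to 0.74; 0.409). SRXN1 differed by 0.15 (-0.37 to 0.67; 0.576) and by -0.12 (-0.64 to 0.40; 0.660). On the log2(TPM + 1) scale the intervals exclude a difference of 1 in either direction for both genes. GCLM was low, with means of 1.35 TPM in Huh-7 and 2.08 TPM in MHCC-97H in si-NC. At such levels this scale understates fold changes, so the intervals of GCLM do not set that bound on its fold change in TPM.

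These differences include a shift of all genes, whose median line difference was 0.49 in si-NC and 0.40 in si-CENPU. Scaling by a trimmed mean brought that median to 0.0001 and -0.0003, and quantile normalization to 0.13 and 0.11. Of all called genes 68.6% were higher in MHCC-97H in si-NC, against 49.1% after trimmed-mean scaling and 55.2% after quantile normalization, and in si-CENPU 65.9%, 48.4% and 54.6%. The 7 called members kept their direction and call under both scalings. In si-NC NQO1 was at 1.79 and 2.13, TXNRD1 at 1.15 and 1.37, and HMOX1 at -3.45 and -3.12. SRXN1 did not: in si-NC it was -0.44 after trimmed-mean scaling (limma adjusted p = 0.0122) and -0.28 after quantile normalization (0.114), and in si-CENPU it was -0.62 (0.00170) and -0.48 (0.0138), so it was called lower in MHCC-97H in 3 of these 4 fits. GCLM in si-CENPU turned to -0.09 under both, without a call.

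**Figure D4:**
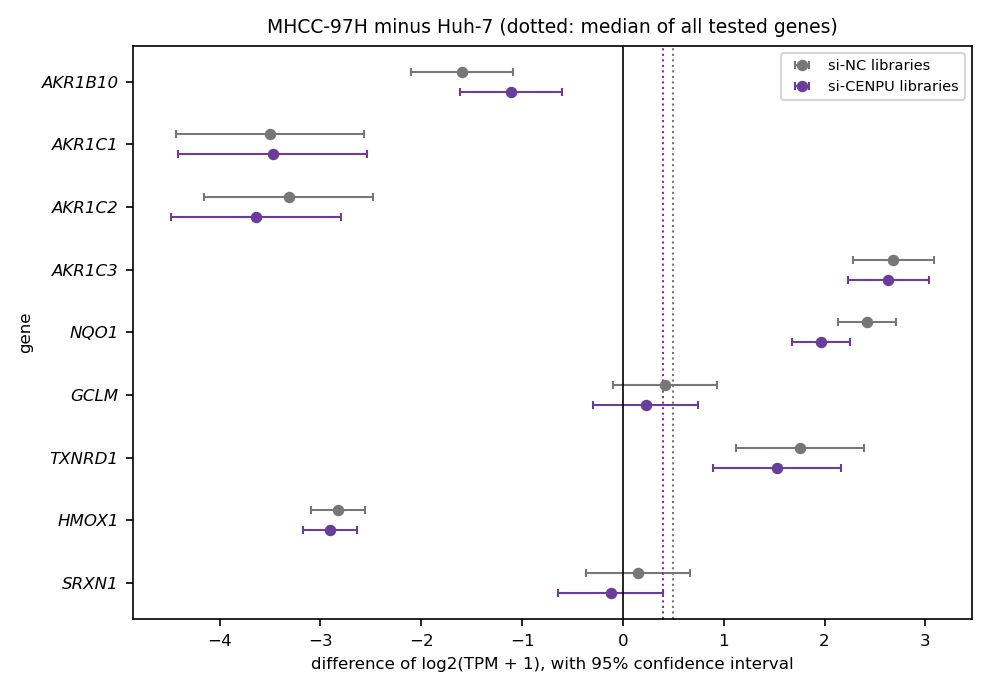
Points give the MHCC-97H minus Huh-7 difference of log2(TPM + 1) for each gene in the si-NC (grey) and si-CENPU (purple) libraries, bars the 95% confidence interval from limma, and dotted lines the median of all tested genes (0.49 and 0.40). AKR1C3, NQO1 and TXNRD1 lie to the right of 0, AKR1B10, AKR1C1, AKR1C2 and HMOX1 to the left, and GCLM and SRXN1 cross 0.

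The regulators of NRF2 were read from a list of 10 genes, of which 9 were tested. NFE2L2 read 4.32, 9.04 and 7.76 TPM in control Huh-7 and 6.61, 5.43 and 3.95 TPM in control MHCC-97H. These overlapped, with a log2 difference of -0.32 (limma adjusted p = 0.259; in si-CENPU -0.54, adjusted p = 0.0667). KEAP1, its inhibitor, read 26.79, 31.62 and 33.25 TPM in control Huh-7 and 8.74, 8.79 and 8.34 TPM in control MHCC-97H, a difference of -1.71 (limma adjusted p = 6.4e-07; in si-CENPU -1.85). Without Huh-7 si-NC replicate 1, where NFE2L2 was lowest, its difference in si-NC was -0.59 (95% interval -1.05 to -0.13; limma adjusted p = 0.0269). NFE2L2 was thus called without that library and not with it. These values include the shift of all genes, and none is given for NFE2L2 under the other scalings. In si-CENPU its libraries did not overlap between the lines, as for 74.7% of all genes. In all, 4 of 9 were called higher in MHCC-97H in si-NC and 3 lower, where 50.1% and 22.9% of all genes were. In si-CENPU the counts were 2 and 3, beside 46.2% and 23.9% of all genes. Higher in both siRNA groups were the small MAF partners MAFK (1.78 and 1.65) and MAFG (1.11 and 0.94), and lower besides KEAP1 were the ligase subunit RBX1 (-1.07 and -1.50) and MAFF (-0.85 and -1.27). The ligase scaffold CUL3 (0.88) and the KEAP1-binding receptor SQSTM1 (0.35, below the shift of all genes) were called in si-NC and not in si-CENPU (0.27 and 0.11; limma adjusted p = 0.524 and 0.334), and CUL3 was not called in si-NC without Huh-7 si-NC replicate 1 (0.43; limma adjusted p = 0.188). The competitor BACH1 lay below the filter, at 0.04, 0.2 and 0 TPM in control Huh-7 and 2.02, 2.33 and 1.49 TPM in control MHCC-97H. After si-CENPU 0 of 9 passed in either line, also at an unadjusted p below 0.05, and MAFF had the smallest p in both, with 0.21 in Huh-7 (0.10 without si-NC replicate 1) and -0.21 in MHCC-97H.

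Of 10 further aldo-keto reductases 3 passed the filter, and all 3 differed between the lines in both siRNA groups, where 73% and 70.1% of all genes did. AKR1B1, aldose reductase, whose coding sequence is 77.2% identical to that of AKR1B10, was higher in MHCC-97H (16.4 ± 2.16 TPM under si-NC in Huh-7 and 190.5 ± 17.1 TPM in MHCC-97H; SD, n = 3; log2 3.46, limma adjusted p = 9.6e-10). The sign was thus opposite to that of AKR1B10. AKR7A2 (0.85) was higher and AKR1A1 (-0.71), an aldehyde reductase, was lower. After si-CENPU 0 of 3 passed, the smallest p being that of AKR1A1 in Huh-7 (0.13) and that of AKR7A2 in MHCC-97H (-0.25, unadjusted p = 0.0114, limma adjusted p = 1).

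The other NRF2 targets numbered 44 in 5 lists, of which 41 were tested. In si-NC, where 73% of all genes were called (50.1% higher, 22.9% lower), 20 were higher and 17 lower in MHCC-97H. In si-CENPU, where 70.1% of all genes were called (46.2% higher, 23.9% lower), 17 were higher and 16 lower. The median line difference of these targets was 0.49 in si-NC, beside 0.49 over all tested genes, and 0.23 in si-CENPU, beside 0.40. Within the lists, members lay on both sides.

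Among 13 tested glutathione genes 6 were higher and 6 lower in MHCC-97H in si-NC, beside 50.1% and 22.9% of all genes. The 4 largest were GPX2, a glutathione peroxidase (-8.29), the microsomal and cytosolic transferases MGST1 (4.51) and GSTM3 (3.87), and GSTM2 (-2.32). GSTM2 is annotated over GSTM1 (1.96) and part of GSTM4 (2.29) on the same strand, so reads of these genes can be confused. GPX2 had a mean of 312.7 ± 10.7 TPM in Huh-7 si-NC (SD, n = 3) and was listed at 0 in the 3 MHCC-97H si-NC libraries, and MGST1 was near 0 in Huh-7. GPX2 and MGST1, like EPHX1, BLVRA and GSTM2, were below 1 TPM in every library of 1 line, so they passed the filter through the other and their size depends on the pseudocount of 1. The 3 thioredoxin and peroxiredoxin genes were called higher in MHCC-97H, as 50.1% of all genes were: PRDX6 by 1.36, TXN by 1.26 and PRDX1 by 0.92, beside the all-gene median of 0.49.

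Of 6 NADPH-supplying genes 3 were higher and 2 lower in si-NC, beside 50.1% and 22.9% of all genes. Among those called were TKT, a transketolase (3.67), PGD of the pentose phosphate pathway (-2.12) and IDH1 (-0.99). Of 7 heme and iron genes 2 were higher and 4 lower, beside the same 50.1% and 22.9% of all genes. The 2 ferritin chains went opposite ways, FTH1 by 2.97 and FTL by -1.89, and so did the biliverdin reductases, BLVRA by 3.24 and BLVRB by -0.79. The iron exporter SLC40A1 (-1.61) was listed at 0 in all MHCC-97H libraries and passed the filter through Huh-7. Of 12 carbonyl, quinone, conjugating and export genes 6 were higher and 5 lower, again beside 50.1% and 22.9% of all genes. The largest differences were those of the epoxide hydrolase EPHX1 (5.04), TRIM16L (3.63), the carbonyl reductase CBR1 (2.84) and the prostaglandin reductase PTGR1 (-2.71).

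**Figure D5:**
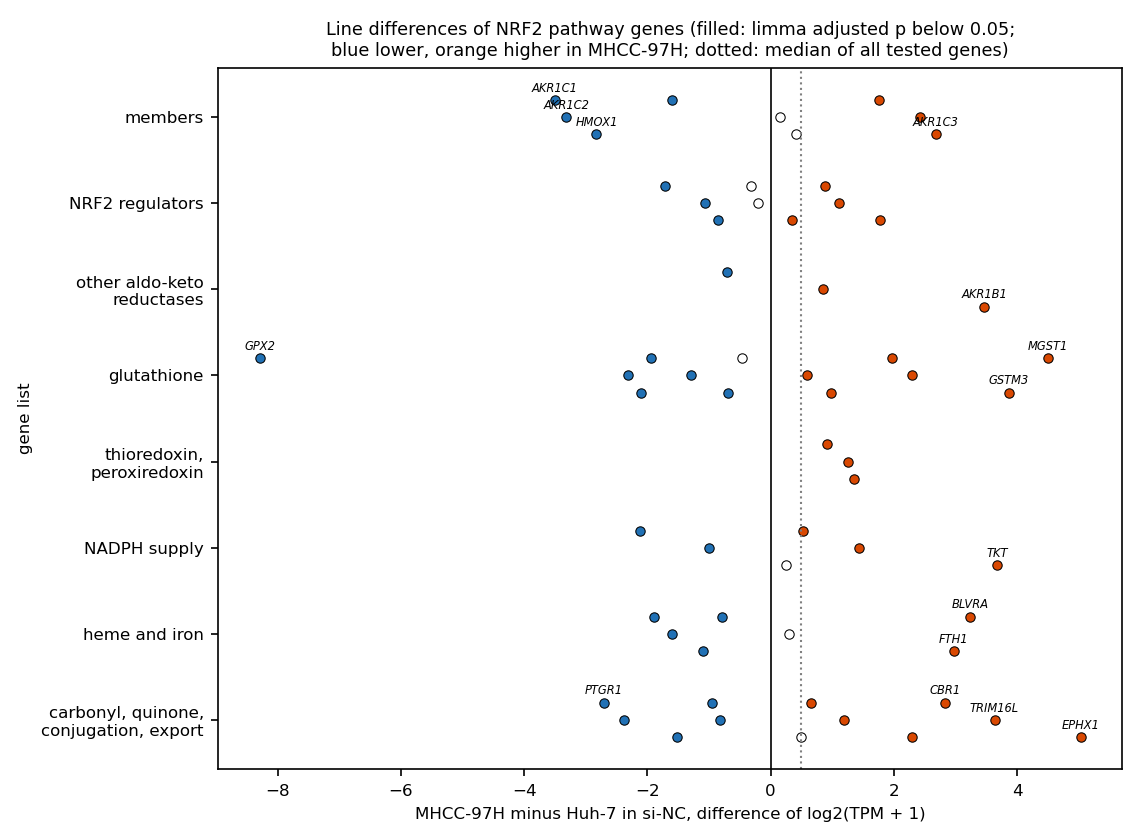
Each point is 1 tested gene and its MHCC-97H minus Huh-7 difference of log2(TPM + 1) in si-NC, by gene list on the vertical axis, filled where limma's adjusted p was below 0.05 and labelled where the size was above 2.5. Every list but that of thioredoxin and peroxiredoxin genes holds called genes on both sides of 0, from GPX2 at -8.29 to EPHX1 at 5.04.

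After si-CENPU 0 of the 41 passed in either line, with 1 at an unadjusted p below 0.05 in Huh-7 and 2 in MHCC-97H, beside 4.57% and 3.42% of all genes. These were MGST1 in Huh-7 (0, 0.27 and 0 TPM under si-NC, 0.37, 0.79 and 0.52 TPM under si-CENPU; log2 0.52, limma adjusted p = 0.828) and, in MHCC-97H, ALDH3A1 (0.56, limma adjusted p = 1) and CBR1 (-0.43, limma adjusted p = 1). ALDH3A1, an aldehyde dehydrogenase, read 1.06, 1.57 and 1.55 TPM under si-NC and 2.69, 3.14 and 1.83 TPM under si-CENPU. The glutathione gene with the smallest p in MHCC-97H was GCLC (-0.34), the catalytic partner of GCLM, and the carbonyl gene with the smallest p in Huh-7 was CBR3 (-0.63, and -0.33 without si-NC replicate 1), both with a limma adjusted p of 1. In the remaining lists the smallest p belonged to TXN in Huh-7 (0.39, and -0.02 without si-NC replicate 1) and PRDX6 in MHCC-97H (-0.10), to TALDO1 (0.22, and 0.09 without that library) and PGD (-0.24), and to ABCB6 in both (-0.26 and -0.14).

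Some members varied together between libraries and others did not. With each library's log2(TPM + 1) taken as its deviation from its own line's mean, over the 12 libraries, Pearson's r was 0.935 for GCLM and TXNRD1, 0.893 for GCLM and SRXN1, 0.876 for TXNRD1 and SRXN1, and 0.91 for AKR1C1 and AKR1C2. With all libraries NQO1 and HMOX1 had values of at most 0.546 and 0.458 with any other member, and NQO1 had -0.136 with AKR1B10. These libraries share GC trends and the scaling to a fixed total, and AKR1C1 and AKR1C2 share sequence, so the values are a description with no test. AKR1C1 and AKR1C2 were at or near 0 in MHCC-97H, so their values rest on the 6 Huh-7 libraries. Without Huh-7 si-NC replicate 1, over 11 libraries, r was 0.766 for AKR1C1 and AKR1C2, and 0.964, 0.871 and 0.850 for the 3 pairs of GCLM, TXNRD1 and SRXN1, while that of AKR1C1 and NQO1 went from 0.166 to -0.725. By the same measure over all tested genes, the nearest to AKR1C1 were the gene ENSG00000227088 (0.987) and the plasma protein genes ITIH2 (0.985) and TF (0.980). Among the nearest to AKR1B10 were NPR2 (0.946) and HGD (0.931), and the nearest to NQO1 were RNU1-27P (0.961), MAD2L1BP (0.959) and GEMIN6 (0.942). Such values were picked as the highest over all tested genes, so their size follows in part from that choice. AKR1B10 was low in MHCC-97H (0.07 to 0.39 TPM), so its values rest mostly on the Huh-7 libraries.

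The promoters of GCLM and TXNRD1 are printed because this pair had the highest r and because both hold the core of an antioxidant response element, the motif TGACNNNGC searched on both strands. Each line gives the 150 bases before a RefSeq start (GRCh38.p14), with the motif in capitals, at chr1:93909431-93909580 (minus) for GCLM and chr12:104215629-104215778 and chr12:104286882-104287031 (plus) for the 2 starts of TXNRD1.
GCLM: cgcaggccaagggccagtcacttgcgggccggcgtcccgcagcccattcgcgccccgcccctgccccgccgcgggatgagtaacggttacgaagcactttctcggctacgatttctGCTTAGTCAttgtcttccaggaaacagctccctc
TXNRD1, first start: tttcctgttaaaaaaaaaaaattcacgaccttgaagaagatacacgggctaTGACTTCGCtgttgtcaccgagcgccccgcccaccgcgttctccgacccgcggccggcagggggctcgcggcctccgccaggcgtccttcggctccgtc
TXNRD1, second start: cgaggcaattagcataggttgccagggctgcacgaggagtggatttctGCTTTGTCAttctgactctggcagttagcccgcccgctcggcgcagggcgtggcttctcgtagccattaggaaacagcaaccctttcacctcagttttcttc
Counted from the start, the matches begin at -34 in GCLM, where the other strand reads TGACTAAGC, and at -99 and -102 in TXNRD1, where the last reads TGACAAAGC on the other strand. A further match in the first TXNRD1 window spans the start and is not in capitals. Windows of 300 bases (250 before to 50 after the start) were found for 7 of the 9 members and AKR1B10 and HMOX1 had no entry. The motif lay in 3 of these 9 windows, in 13 of 37 windows of the other targets, and in 13.3% of all 35116 windows. SRXN1, which varied with GCLM and TXNRD1, had 0 matches in its window, as had NQO1, AKR1C1, AKR1C2 and AKR1C3. Bases outside the windows were not searched, so 0 matches does not mean that a gene lacks the element. Whether the motif has a part in the shared variation was not tested. A match is a description of letters and not a bound site.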

How the data were processed

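RNA libraries were made with an Illumina TruSeq kit from PureLink RNA, per the labels' protocols. The authors deposited 1 table of TPM with a column for each of 12 libraries. HISAT2, StringTie and the build GRCh38.p13 are named, without versions, per the submitters' processing notes. Annotation release, strand setting and filters: not given in the sources used here. The TPM columns summed to between 998416 and 999065. TPM keeps no sequencing depth, so depth is unknown and no counting interval is given.

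Groups and replicate numbers were taken from titles. Of 60664 Ensembl identifiers, 60447 had a symbol. Positions, coding sequences and GC content came from GENCODE release 29 (GRCh38), promoter windows from RefSeq (GRCh38.p14). Genes averaging 1 TPM or more were tested in limma 3.58.1 (R 4.3.3) on log2(TPM + 1), with 1 mean for each of 4 groups, empirical Bayes with a mean-variance trend, two-sided, Benjamini-Hochberg within each contrast and a threshold of 0.05. Fold changes on this scale understate the change of low genes. Alternatives were other pseudocounts, filters, scalings and moderation, each contrast's samples alone, the replicate number as a block, each library left out, a GC correction and other lists' genes without Huh-7 si-NC replicate 1, both added after seeing the data, and AKR1C genes summed.

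All 9 members are named. From each other list every called gene is named (the 4 largest where over 4 were called) and, where none was, the gene with the smallest p in each line. NFE2L2 and KEAP1 are always named. A few genes that this rule or the likeness rule would name are not reported here. CUL3, SQSTM1, MAFF and BLVRB between the lines, and CBR1 after si-CENPU, fall outside this rule and were picked with their values in view. The members and lists were chosen with earlier results of these data known.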

Additional observations from a re-analysis of the deposited data

How the results depend on the processing

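Leaving out each library, 2 other pseudocounts, 2 other filters, 3 rescalings, 2 other moderations, each contrast's samples alone, a block on the replicate number and a GC correction added after seeing the data gave 0 members called after si-CENPU in every fit, with limma adjusted p from 0.369 to 1. The 7 members called between the lines kept their direction and call in every fit that tested them. Leaving out Huh-7 si-NC replicate 1 moved AKR1C1 and AKR1C2 in si-NC from -3.50 and -3.32 to -4.12 and -3.90 (log2). A mean of at least 5 TPM left AKR1B10, AKR1C3 and GCLM untested, so 5 members were called. Besides SRXN1, described above, GCLM crossed the threshold after the GC correction (0.35, limma adjusted p = 0.0201, in si-NC, and 0.29, 0.0496, in si-CENPU). The cause was not tested.

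Differences near 0 changed sign in some fits, none with a call except SRXN1 between the lines. With a pseudocount of 0.1 GCLM in Huh-7 was 0.0287, AKR1B10 over both lines 0.0014 and AKR1C1 between the responses -0.0492, and with 0.5 GCLM was 0.0003. AKR1C3 in MHCC-97H was 0.0021 after trimmed-mean scaling, 0.0119 after quantile normalization and 0.0479 after the GC correction, and its difference of responses 0.0223, 0.0354 and 0.0760, or 0.0019 after rescaling without abundant genes. That of HMOX1 was 0.0261 and 0.0169 under the first pair. Between the lines SRXN1 in si-NC was -0.4436 and -0.2817, and GCLM in si-CENPU -0.0877 and -0.0922. The GC correction gave -0.0084 for SRXN1 in Huh-7, 0.1004 for AKR1C1, 0.1032 for AKR1C2 and 0.0108 for NQO1 in MHCC-97H, and 0.0259 for AKR1C1 and 0.0099 for AKR1C3 over both lines.

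With 1 library left out, values in Huh-7 ran from -0.6587 to 0.2892 for AKR1C1, -0.2645 to 0.6758 for AKR1C2, -0.0781 to 0.0590 for AKR1C3, -0.2745 to 0.1341 for GCLM, -0.3841 to 0.1261 for TXNRD1, -0.1610 to 0.0020 for HMOX1 and -0.1692 to 0.1679 for SRXN1. In MHCC-97H they ran from -0.0255 to 0.0166 for AKR1C1 and -0.1784 to 0.1512 for AKR1C3. Over both lines they ran from -0.3339 to 0.1401 for AKR1C1, -0.1323 to 0.3379 for AKR1C2 and -0.0952 to 0.0695 for AKR1C3. For the difference of responses they ran from -0.2983 to 0.6497 for AKR1C1, -0.6758 to 0.2645 for AKR1C2, -0.1663 to 0.1633 for AKR1C3, -0.3401 to 0.0685 for GCLM, -0.4781 to 0.0321 for TXNRD1 and -0.1522 to 0.0491 for HMOX1. Between the lines SRXN1 ran from -0.0474 to 0.3639 in si-NC and from -0.2227 to 0.0229 in si-CENPU.

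Counts over all genes, which give the background, were 1 in each si-CENPU contrast. In Huh-7, MHCC-97H, both lines and the difference of responses, they ran from 0 to 4, 0 to 4, 0 to 6 and 0 to 4 with 1 library left out, and were 4, 7, 7 and 6 with no filter and 2, 7, 8 and 2 after trimmed-mean scaling. In the first 3 they were 3, 7 and 13 after quantile normalization and 3, 8 and 23 after the GC correction. In Huh-7 the count was 11 with a pseudocount of 0.1 and 0 with a mean of at least 5 TPM, and with each contrast's samples alone it was 0 in each line. In MHCC-97H it was 0 with a pseudocount of 0.1 and 0 without a trend. Over both lines it was 7 with a mean of at least 5 TPM, 4 after rescaling without abundant genes, 3 with robust moderation and 0 without a trend. For the difference of responses it was 0 with pseudocounts of 0.1 and 0.5 and 0 with a mean of at least 5 TPM. Between the lines 4405 and 4282 genes were called with a mean of at least 5 TPM, since fewer were tested.

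The deviations of same-numbered libraries had r of -0.03, -0.09 and 0.03 in Huh-7 and -0.03, -0.09 and 0.13 in MHCC-97H. Differently numbered libraries had r from -0.12 to 0.16. These values cannot show whether same-numbered libraries shared a culture or a batch. With the replicate block 0 members were called after si-CENPU and 7 in each line comparison, and all-gene counts were 0 in MHCC-97H, 0 over both lines and 0 for the difference of responses.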
